A study of Homo sapiens with 9 samples.

Results

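Cells carrying the R132H mutant of isocitrate dehydrogenase 1 (IDH1mt) were compared with cells carrying the empty vector PCDH in U87, a human glioblastoma line. The comparison used the 3 IDH1mt and the 3 PCDH libraries, chosen by their labels, which are 6 of the 9 RNA sequencing libraries of the series, and took in every gene of the count table. All groups were U87 cells that stably expressed a construct and were grown in DMEM with fetal bovine serum, penicillin and streptomycin, so the controls shared the vector and the culture. The other 3 libraries came from cells carrying IDH1mt with a further change of a cysteine to serine (IDH1mt C269S, here C269S), and they enter here only where IDH1mt and C269S were set against each other. The series asked how palmitoylation of the mutant enzyme by itself bears on expression. No group carried introduced IDH1 without R132H. The labels do not give the promoter of the vector, how many selected lines each construct had, or whether libraries of 1 group were cultured separately. The p-values therefore measure the spread between libraries, which may be technical, and mutation, raised IDH1 level and selected line cannot be told apart.

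IDH1 is the cytosolic and peroxisomal enzyme that turns isocitrate into 2-oxoglutarate and makes NADPH. The R132H change replaces an arginine of the active site, and the mutant enzyme uses NADPH to reduce 2-oxoglutarate to 2-hydroxyglutarate. That product competes with 2-oxoglutarate at a family of dioxygenases, which includes the TET enzymes, the Jumonji histone demethylases, the collagen hydroxylases and the prolyl hydroxylases that mark hypoxia-inducible factors for destruction. R132H is the usual IDH1 mutation of diffuse gliomas, and U87 has no IDH1 mutation of its own.

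The codons that the constructs change are shown because they define the groups. In transcript IDH1-201 of GENCODE release 29, whose coding part runs over 414 codons, codon 132 is CGT for arginine. It lies in exon 4 of 10 on the reverse strand, at chromosome 2, 208248387 to 208248389 on GRCh38. The codon changed in C269S, TGT for cysteine, lies in exon 7, at 208242037 to 208242039. Each window below is reference coding sequence over 15 codons, with the named codon in capitals. The introduced transcripts' own bases were not analysed here.
IDH1 codon changed in R132H: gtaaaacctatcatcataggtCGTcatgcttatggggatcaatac
IDH1 codon changed in C269S: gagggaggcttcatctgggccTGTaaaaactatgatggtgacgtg

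The IDH1 gene (chromosome 2, 208236227 to 208266074 in the count table) was read first, to see whether the labels hold. It stood at 112, 102 and 118 CPM in PCDH replicates 1 to 3 and at 660.2, 678 and 693 CPM in IDH1mt replicates 1 to 3, where CPM is the count scaled by edgeR to a common library size. The groups did not overlap, and the transcript rose 6.12-fold in edgeR's quasi-likelihood test (log2 change 2.61, SE 0.06, adjusted p = 8.59e-25). In C269S it stood at 773, 724 and 718 CPM, and IDH1mt minus C269S was -0.13 (SE 0.05, adjusted p = 0.227). The IDH1 level separates PCDH from both mutants but not IDH1mt from C269S, whose columns were assigned by name alone. Reads of the construct and of the cell's own gene fall in this 1 count of IDH1.

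The 6 libraries held 19108925 to 24803711 counts. The first principal component, with 34.9% of the variance, separated the groups, and PCDH replicate 3 stood apart from the other PCDH libraries on the next, with 19.96%. Reads of the mitochondrial genome made up 2.91% to 3.35% of counts in PCDH and 3.72% to 3.80% in IDH1mt. Of 8 lists of 10 markers each for other cell types that could be present, some members were expressed and some were called. The astrocyte markers (5 of 10 tested, 1 higher, GJA1) summed to 546 to 594 CPM in PCDH and 646 to 662 CPM in IDH1mt, and the oligodendrocyte lineage markers (5 tested, 1 higher, PDGFRA) to 238 to 264 CPM and 227 to 235 CPM. Neuronal markers (7 tested, SNAP25 higher and MAP2 lower, neither in every fit without 1 library) summed to 77.7 to 85.8 CPM in PCDH and 77.8 to 89.0 CPM in IDH1mt. The markers of microglia and macrophages (4 tested, CSF1R higher and TMEM119 lower) summed to 41.4 to 47.0 CPM and 36.6 to 39.1 CPM, and the endothelial ones (7 tested, KDR and TIE1 lower, TIE1 not in every fit without 1 library) to 33.7 to 36.4 CPM and 25.6 to 26.4 CPM. T cell markers (4 tested, 1 higher, IL7R) summed to 15.1 to 17.0 CPM and 21.9 to 25.5 CPM, and epithelial ones (4 tested) to 10.7 to 12.1 CPM and 9.03 to 10.97 CPM. Markers of fibroblasts and mesenchymal cells were abundant and are given with the collagens. The part of these markers in the results was not tested. The T cell genes CD3D, CD3E, CD3G and LCK, the microglial TYROBP, the astrocytic AQP4 and GJB6, the oligodendrocyte genes MOG and MOBP, the neuronal GAD2 and the epithelial CLDN3 had 0 counts in all 6 libraries. The astrocyte marker GFAP, the intermediate filament of astrocytes, stood at 4.18, 3.29 and 3.02 CPM in PCDH and 3.49, 4.20 and 4.34 CPM in IDH1mt, and it did not pass the test (log2 change 0.20, SE 0.21, adjusted p = 0.602).

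Of 58735 genes, 16874 had enough counts to be tested. Between IDH1mt and PCDH, 2375 of them (14.1%) passed edgeR's test at an adjusted p under 0.05. These were 1211 higher in IDH1mt (7.18% of genes tested) and 1164 lower (6.9%). The CPM ranges of the groups did not overlap for 4925 genes tested (29.2%), and for 2285 of the 2375 genes called. Most changes were small. The median fold among called genes was 1.33 upward and 1.29 downward, and 175 genes rose and 92 fell more than 2-fold. With library size as the only scaling, 918 genes were higher and 1691 lower, so that 35.2% rather than 51.0% of the calls were upward, and the median log2 change of all genes moved from -0.01 to -0.06. Leaving out PCDH replicate 3 raised the counts to 1574 higher and 1474 lower. Leaving out IDH1mt replicate 1, 2 or 3 brought the lower genes to 747, 745 and 767. In each of the 6 fits that left out 1 library, 652 of the higher and 470 of the lower genes kept their call. Every gene said below to have risen or fallen belongs to these unless a library is named beside it. Calls followed depth, with 19.7% of the 9542 genes above 10 CPM called, against 2.34% of the 2653 genes below 1 CPM. Where a list below has 0 called genes in a direction in edgeR's test, DESeq2 and limma-voom also called 0 unless another number is given. By class, 16.4% of protein-coding genes, 7.89% of lincRNAs and 4.67% of antisense RNAs were called.

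**Figure D1:**
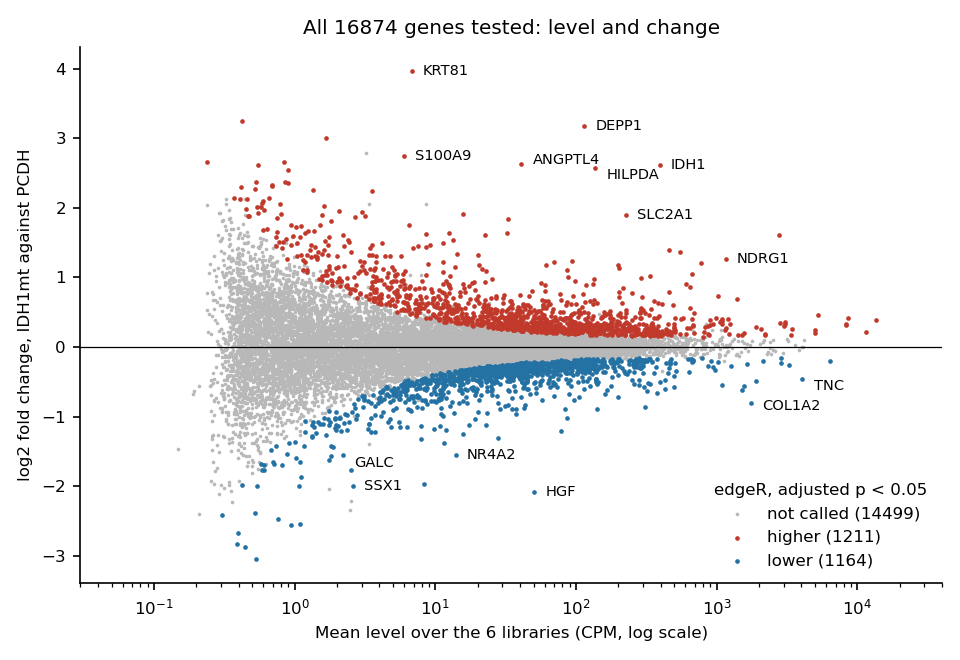
Log2 fold change of each of the 16874 genes tested (vertical axis) against its mean level over the 6 libraries in CPM (horizontal log axis). Red points are the 1211 genes called higher in IDH1mt, blue the 1164 called lower and grey the rest. Most red and blue points lie close to the zero line, and HILPDA, DEPP1, SLC2A1 and HGF stand apart at levels above 10 CPM.

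The largest rises outside IDH1 itself included genes of nutrient stress, lipid handling and epithelial or inflammatory character. DEPP1, a FOXO target that acts on autophagy (chromosome 10, 44970981 to 44978810), stood at 22.1, 23.7 and 22.2 CPM in PCDH replicates 1 to 3 and at 213, 204 and 199 CPM in IDH1mt replicates 1 to 3. Every IDH1mt library was far above every PCDH library, a 9.07-fold rise (log2 change 3.18, SE 0.08, adjusted p = 2.75e-23). KRT81, a hair keratin with a near-identical neighbour KRT86 (chromosome 12, 52285913 to 52291534), was almost silent in PCDH at 0.934, 0.801 and 0.710 CPM and reached 12.9, 12.5 and 12.8 CPM in IDH1mt (log2 change 3.96, SE 0.23, adjusted p = 2.09e-14). S100A9, a calcium-binding protein best known from neutrophils, stood at 1.57, 1.43 and 1.64 CPM in PCDH and 9.97, 8.85 and 12.6 CPM in IDH1mt, again without overlap (log2 change 2.75, SE 0.21, adjusted p = 3.67e-11).

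ANGPTL4, a secreted inhibitor of lipoprotein lipase (chromosome 19, 8363289 to 8374373), stood at 13.1, 11.003 and 10.03 CPM in PCDH replicates 1 to 3 and at 74.9, 66.5 and 69.6 CPM in IDH1mt replicates 1 to 3. HILPDA, which sits on lipid droplets and blocks the lipase ATGL (chromosome 7, 128455849 to 128458418), stood at 40.02, 44.2 and 33.98 CPM in PCDH replicates 1 to 3 and at 247, 243 and 213 CPM in IDH1mt replicates 1 to 3. Both genes kept their groups far apart and rose 6.20-fold (log2 change 2.63, SE 0.11, adjusted p = 2.47e-16) and 5.95-fold (log2 change 2.57, SE 0.08, adjusted p = 1.00e-18). SLC2A1, the glucose transporter GLUT1 (chromosome 1, 42925375 to 42959176), rose from 92.5, 101 and 94.3 CPM in the PCDH libraries to 368, 360.3 and 344 CPM in the IDH1mt libraries (log2 change 1.90, SE 0.06, adjusted p = 4.12e-20). DDIT4L, an inhibitor of mTOR signalling, moved from 14.2 ± 1.56 to 51.1 ± 0.979 CPM (SD, n = 3 each) and rose 3.59-fold. CD24, a surface glycoprotein, and ACKR3, a scavenging receptor for the chemokine CXCL12, rose 3.76-fold and 3.70-fold, ACKR3 from a low level of 1.47, 1.69 and 0.887 CPM.

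The other genes among the 20 largest rises were mostly low in PCDH. MAGEC2, a cancer-testis antigen, rose 3.38-fold, and MYH15, a myosin heavy chain, rose 3.12-fold to 48.2, 49.9 and 49.8 CPM. The pyrimidine salvage enzyme CDA rose 3.08-fold, the carboxylesterase CES1 2.91-fold, the protease-like PRSS35 3.12-fold and the oxygen sensor EGLN3 3.06-fold. ELF5, an epithelial transcription factor, stood at 1.52, 0.801 and 1.46 CPM in PCDH and 3.11, 4.08 and 3.54 CPM in IDH1mt, and CCDC88B, a regulator of immune cells, at 1.92, 3.12 and 1.51 CPM in PCDH and 6.23, 6.75 and 5.57 CPM in IDH1mt, each without overlap. SLC6A12, a betaine transporter, had a log2 fold change of 1.54 but was not called when PCDH replicate 1 or IDH1mt replicate 2 was left out. PI3, the elastase inhibitor elafin (chromosome 20, 45174876 to 45176544), was the abundant member of the group. It stood at 1425, 1369 and 1336 CPM in PCDH replicates 1 to 3 and at 4273, 4199.9 and 4082 CPM in IDH1mt replicates 1 to 3, a 3.04-fold rise (log2 change 1.60, SE 0.05, adjusted p = 6.51e-21).

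The largest falls included growth factors, BMP-responsive genes and a nuclear receptor. HGF, the ligand of the MET receptor (chromosome 7, 81699008 to 81770438), stood at 75.1, 80.9 and 90.05 CPM in PCDH replicates 1 to 3 and at 21.3, 19.9 and 16.9 CPM in IDH1mt replicates 1 to 3. The groups lay far apart, and the gene fell 4.22-fold (log2 change -2.08, SE 0.09, adjusted p = 3.53e-17). FGF7, keratinocyte growth factor (chromosome 15, 49423096 to 49488775), fell from 37.02, 39.4 and 42.5 CPM to 15.5, 16.9 and 15.5 CPM (log2 change -1.31, SE 0.10, adjusted p = 7.28e-12). NR4A2, an orphan nuclear receptor and immediate early gene, stood at 19.1, 23.99 and 19.3 CPM in PCDH and 8.12, 6.09 and 7.02 CPM in IDH1mt, a 2.94-fold fall (log2 change -1.56, SE 0.13, adjusted p = 1.19e-10).

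ID3 and ID4 encode inhibitors of basic helix-loop-helix factors that BMP signals induce. ID3 (chromosome 1, 23557918 to 23559794) stood at 109.7, 114 and 105 CPM in PCDH replicates 1 to 3 and at 47.1, 44.8 and 50.8 CPM in IDH1mt replicates 1 to 3, and ID4 at 11.2, 11.003 and 11.8 CPM in PCDH and 4.17, 4.28 and 5.20 CPM in IDH1mt. Neither gene's groups overlapped, and they fell 2.31-fold (log2 change -1.21, SE 0.07, adjusted p = 1.21e-13) and 2.51-fold (log2 change -1.33, SE 0.15, adjusted p = 1.60e-07). SSX1, a cancer-testis antigen of a multigene family, and GALC, the lysosomal galactosylceramidase, were low throughout, at 5.41, 3.71 and 3.37 and 2.61, 3.46 and 3.73 CPM in PCDH against 1.77, 0.823 and 0.429 and 1.01, 1.07 and 1.29 CPM in IDH1mt.

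Matrix and membrane genes made up much of the rest of the 20 largest falls. COL11A1, a minor fibrillar collagen, fell 2.59-fold and ADAMTS2, the procollagen N-proteinase, 2.30-fold. The Wnt regulators SFRP2, a secreted antagonist, and RSPO3, which strengthens Wnt signals, fell 2.19-fold and 2.18-fold. Members of the nervous system repertoire were in the group as well. LRFN5, a synaptic adhesion protein, stood at 4.23, 5.69 and 4.04 CPM in PCDH and 2.52, 2.02 and 1.55 CPM in IDH1mt, and the calcium sensor VSNL1 at 5.06, 4.005 and 4.75 CPM in PCDH and 1.85, 2.47 and 2.04 CPM in IDH1mt. TRPC4, a cation channel, and KCNAB3, a potassium channel subunit, fell 2.22-fold and 2.22-fold. ST8SIA4, a polysialyltransferase, the lipid phosphatase MTMR1, the acyl-CoA synthetase ACSS3 and the RNA polymerase I subunit gene ZNRD1 fell between 2.15-fold and 2.26-fold. IGFL2, an insulin-like growth factor family member, had a log2 fold change of -1.20 and was not called when IDH1mt replicate 1 was left out.

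**Figure D2:**
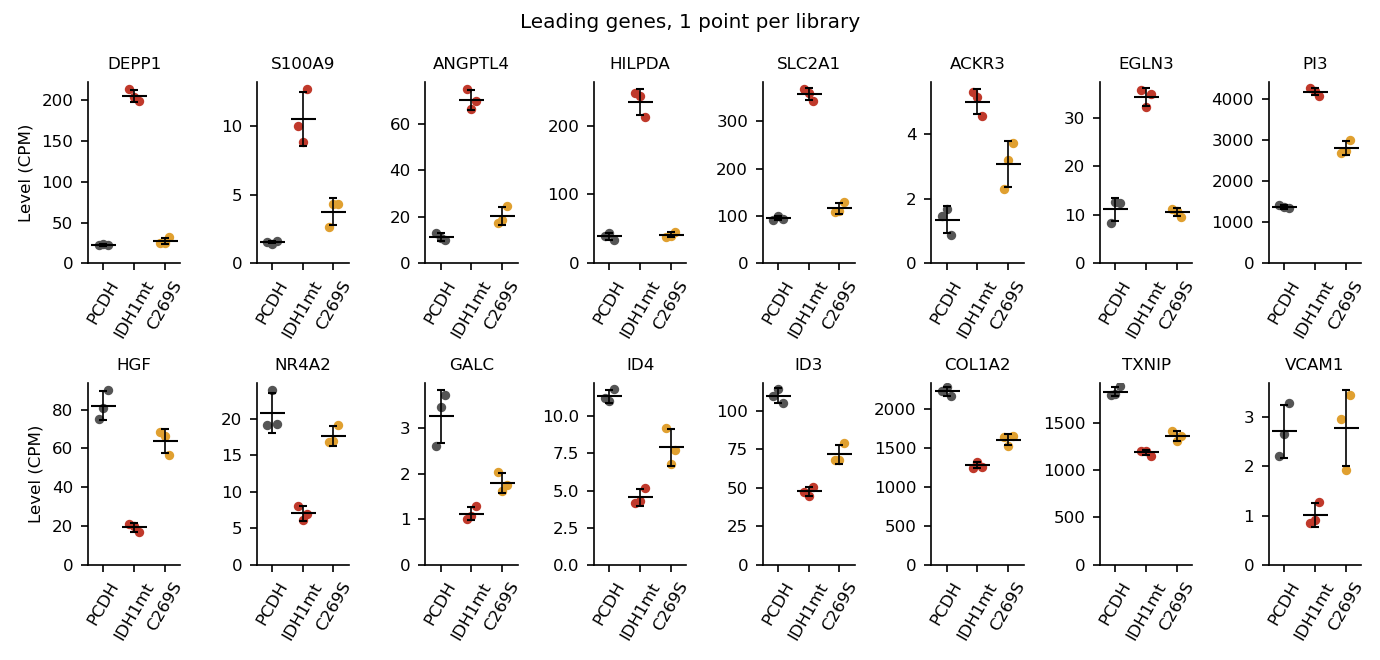
Level in CPM (vertical axes, from 0) of 16 genes in each library of PCDH, IDH1mt and C269S, 1 point per library, with the mean and SD of 3 libraries in black. In the upper row the IDH1mt points lie above all PCDH points and in the lower row below them.

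The largest gains in CPM included secreted proteins and genes of the mitochondrial genome. TFPI2, a serine protease inhibitor of the matrix, went from 7405 ± 439 to 9871 ± 123 CPM and the chemokine CXCL8, interleukin-8, from 4395 ± 472 to 6049 ± 281 CPM (SD, n = 3 each). FN1, fibronectin, rose 1.17-fold from 10694 ± 573 to 12475 ± 832 CPM. AKR1B1, the aldose reductase of the polyol pathway, rose 1.18-fold (log2 change 0.24, SE 0.05, adjusted p = 0.00194). NDRG1, a stress-responsive gene, went from 683 ± 17.7 to 1638 ± 49.1 CPM, a 2.398-fold rise (log2 change 1.26, SE 0.06, adjusted p = 2.87e-17).

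The largest losses in CPM were matrix transcripts. TNC, tenascin C (chromosome 9, 115019578 to 115118257), stood at 4629, 4781 and 4741 CPM in PCDH replicates 1 to 3 and at 3249.8, 3536 and 3481 CPM in IDH1mt replicates 1 to 3 (log2 change -0.46, SE 0.05, adjusted p = 1.28e-08). COL1A2, a chain of type I collagen (chromosome 7, 94394561 to 94431232), stood at 2226, 2269 and 2158 CPM in PCDH replicates 1 to 3 and at 1244, 1322 and 1257 CPM in IDH1mt replicates 1 to 3 (log2 change -0.80, SE 0.05, adjusted p = 1.29e-13). In both genes every IDH1mt library lay below every PCDH library. COL6A1 and COL6A2, neighbouring genes of type VI collagen on chromosome 21, fell 1.48-fold and 1.40-fold, and TGFBI, an adhesion protein induced by TGF-beta, fell 1.15-fold from 6816 ± 261 to 5952 ± 62.8 CPM. Outside the matrix, TXNIP, the glucose-responsive inhibitor of thioredoxin and of glucose uptake, stood at 1797, 1803 and 1883 CPM in PCDH and 1205, 1204 and 1152 CPM in IDH1mt and fell 1.54-fold (log2 change -0.62, SE 0.05, adjusted p = 3.67e-11). NAMPT, the rate-limiting enzyme of NAD salvage, fell 1.17-fold from 3108 ± 276 to 2656 ± 39.6 CPM.

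Genes of the hypoxia response mostly rose. Of 39 tested, 30 were higher (7.18% among all genes), 3 lower and 6 not called, with a median log2 change of 0.41 against -0.01 for all genes. The count of higher members lay between 28 and 29 in the fits without 1 library. Besides the genes already given, PFKFB3 and PFKFB4, which make the glycolytic activator fructose 2,6-bisphosphate, rose 2.19-fold and 1.86-fold. VEGFA, the angiogenic growth factor (chromosome 6, 43770184 to 43786487), rose from 783, 809 and 708 CPM to 1354, 1285 and 1192 CPM (log2 change 0.74, SE 0.06, adjusted p = 3.30e-10). ZNF395, BHLHE40 and MXI1, all transcription factors, rose 1.88-, 1.72- and 1.58-fold, and INSIG2, a brake on sterol synthesis, 1.51-fold.

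The oxygen-sensing loop itself was part of the group. EGLN3 stood at 8.41, 12.6 and 12.3 CPM in PCDH replicates 1 to 3 and at 35.6, 32.2 and 34.9 CPM in IDH1mt replicates 1 to 3 (log2 change 1.62, SE 0.12, adjusted p = 1.09e-11), and EGLN1, the main prolyl hydroxylase of hypoxia-inducible factor, at 41.9, 50.9 and 55.5 CPM in PCDH and 73.7, 70.8 and 74.02 CPM in IDH1mt (log2 change 0.56, SE 0.08, adjusted p = 7.86e-06). All IDH1mt libraries were above all PCDH libraries for both. The mitophagy receptors BNIP3 and BNIP3L rose 1.21-fold and 1.41-fold, and ADM, the vasodilator adrenomedullin, 1.53-fold. LOX, the lysyl oxidase, and NDNF, a secreted neurotrophic factor, fell 1.29-fold and 1.46-fold. The carbonic anhydrase CA12 had a log2 difference of -0.07 (adjusted p = 0.440). CA9, another carbonic anhydrase, had one of -0.22 and lost its call without PCDH replicate 1 or 2 or IDH1mt replicate 2 or 3.

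Among glucose genes, uptake and the first step of glycolysis had the largest rises. Of 21 genes of glycolysis and lactate export, 10 were higher and 3 lower, with a median of 0.08. HK2, the hexokinase that traps glucose (chromosome 2, 74833981 to 74893359), stood at 290.2, 319 and 311 CPM in PCDH replicates 1 to 3 and at 797, 782 and 779 CPM in IDH1mt replicates 1 to 3 (log2 change 1.36, SE 0.05, adjusted p = 1.27e-18). SLC2A3, the transporter GLUT3, rose 1.80-fold (log2 change 0.85, SE 0.06, adjusted p = 3.20e-12), and SLC16A1, the monocarboxylate transporter MCT1, 1.71-fold. The aldolase ALDOA rose 1.45-fold and the lactate dehydrogenase LDHA 1.24-fold, whereas the triosephosphate isomerase TPI1 fell 1.17-fold. Without PCDH replicate 1, 1 member passed as lower. Of 36 genes of pyruvate entry and the citric acid cycle, 4 were higher and 2 lower. That is 16.7% of them, against 14.1% among all genes and 16.4% among protein-coding genes. PDK1, the kinase that switches off pyruvate dehydrogenase, rose 1.28-fold (log2 change 0.35, SE 0.08, adjusted p = 0.00308), and IDH2, the mitochondrial isocitrate dehydrogenase, rose 1.23-fold (log2 change 0.30, SE 0.06, adjusted p = 0.00110). The higher ones were 2 when PCDH replicate 2 or IDH1mt replicate 3 was left out. The lower ones were 0 when PCDH replicate 1, IDH1mt replicate 1 or IDH1mt replicate 2 was left out, and 1 without PCDH replicate 3 or IDH1mt replicate 3.

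Listed genes of NADPH supply leaned downward. The list does not hold the isocitrate dehydrogenase genes IDH1 and IDH2, which were higher, as given above. The IDH1 count includes reads of the construct, whose mutant enzyme uses NADPH. Of 13 genes of the pentose phosphate pathway and NADPH supply, 0 were higher (0 at an unadjusted p under 0.05) and 5 lower (6.9% among all genes), with a median of -0.21. NNT, the mitochondrial transhydrogenase that makes NADPH from NADH (chromosome 5, 43602692 to 43707405), stood at 21.3, 21.3 and 21.3 CPM in PCDH replicates 1 to 3 and at 12.4, 11.9 and 12.5 CPM in IDH1mt replicates 1 to 3. It fell 1.74-fold with no overlap between groups (log2 change -0.80, SE 0.11, adjusted p = 2.20e-06). MTHFD1 and ALDH1L2, folate enzymes of the cytosol and the mitochondrion, fell 1.29-fold and 1.26-fold. The malic enzyme ME1 had a log2 difference of 0.21 (adjusted p = 0.830) and PGD, of the oxidative pentose branch, one of -0.07. Leaving out PCDH replicate 1 or IDH1mt replicate 2 left 3 lower.

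Messenger and ribosomal RNAs of the mitochondrial genome were mostly higher, and few nuclear genes of the same respiratory complexes passed the test. Of 15 tested mitochondrial genes for proteins and ribosomal RNAs, 12 were higher and 0 lower (0 at an unadjusted p under 0.05), with a median of 0.33. The higher ones numbered 9 to 13 in the fits without 1 library. Among all 25 tested genes of the mitochondrial genome, 13 were higher and 0 lower. These include 10 transfer RNA genes, of which 1 was higher. MT-CYB, cytochrome b, stood at 544, 473 and 549 CPM in PCDH replicates 1 to 3 and at 786, 736 and 791 CPM in IDH1mt replicates 1 to 3 (log2 change 0.56, SE 0.06, adjusted p = 8.56e-09). MT-ND6, which is encoded on the other strand from the remaining subunits, stood at 316, 289.6 and 316 CPM in PCDH and 406, 407 and 422 CPM in IDH1mt (log2 change 0.42, SE 0.05, adjusted p = 6.56e-07). Without a stated strand setting, reads of MT-ND6 and of RNA from the opposite strand cannot be told apart. MT-CO1, of cytochrome oxidase, rose 1.26-fold from 7316 ± 629.5 to 9233 ± 334 CPM. MT-RNR1, the small ribosomal RNA, had a log2 difference of 0.06 (adjusted p = 0.918).

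Of 37 nuclear genes of complex I, 0 were higher (3 at an unadjusted p under 0.05, 2 by DESeq2) and 1 lower, and of 37 of complexes III to V, 2 were higher and 0 lower (3 at an unadjusted p under 0.05). Their medians were -0.03 and 0.04. COX7B, a subunit of cytochrome oxidase, rose 1.25-fold (log2 change 0.32, SE 0.07, adjusted p = 0.00216). ATP5F1A, a subunit of the ATP synthase, was the other higher gene, and it was called only without PCDH replicate 3 among the fits without 1 library. Without PCDH replicate 3, 8 complex I genes passed as lower and 1 as higher and 2 of complexes III to V as lower. The lower complex I genes were 0 without IDH1mt replicate 2, and 1 gene of complexes III to V was lower without IDH1mt replicate 1. Of 77 mitochondrial ribosome genes, 1 was higher and 5 lower, MRPL20 among the latter (log2 fold change -0.30), and the lower ones were 1 without PCDH replicate 1, 2 without IDH1mt replicate 1 or 2 and 3 without PCDH replicate 2. The higher one was not called without PCDH replicate 2 or IDH1mt replicate 2. In the main fit 7.79% of the mitochondrial ribosome genes were called, against 14.1% among all genes. The share of counts from the mitochondrial genome, given above, moved with these transcripts, and its part in the result was not tested. Reads shared with nuclear copies of mitochondrial genes could not be told apart.

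**Figure D3:**
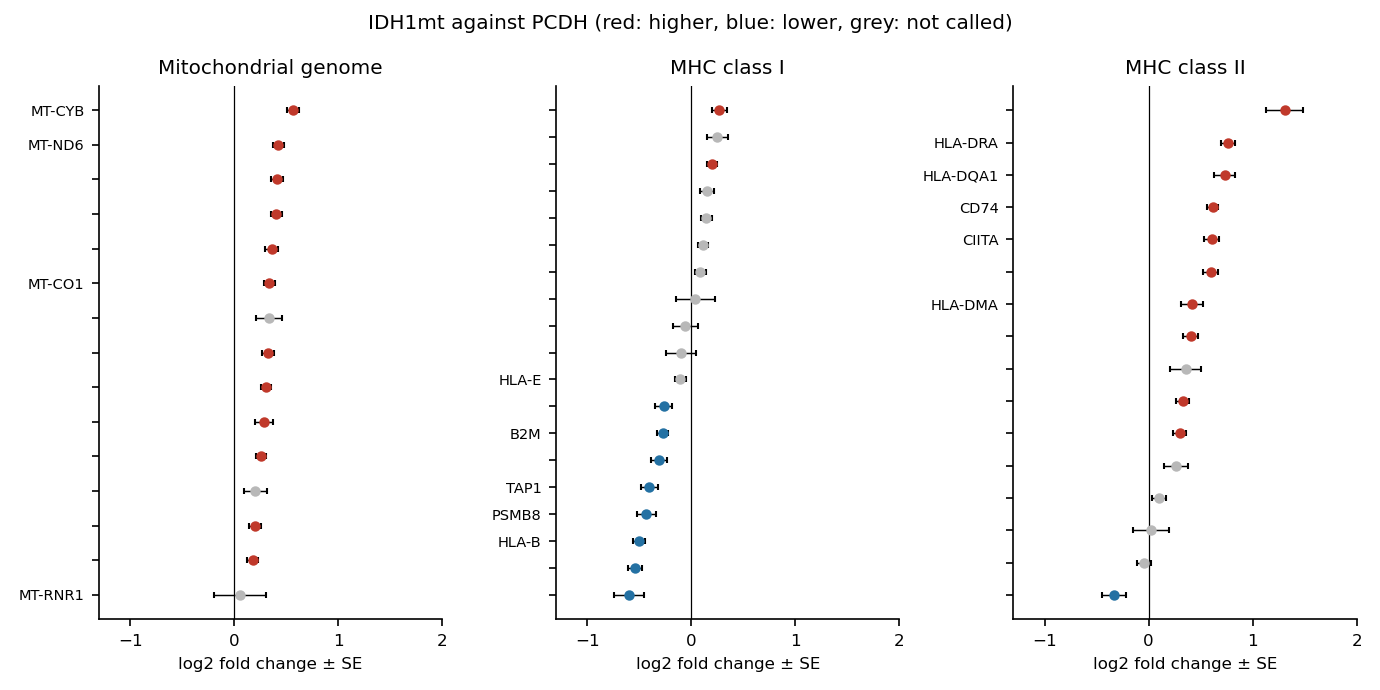
Log2 fold change of IDH1mt against PCDH with its SE (horizontal axes) for each tested gene of the lists shown, with names for the genes described in the text. The lists are the protein and ribosomal RNA genes of the mitochondrial genome, MHC class I with its peptide loading, and MHC class II. Of the mitochondrial genes 12 of 15 are higher, of the class I genes 8 of 19 lower and 2 higher, and of the class II genes 10 of 16 higher and 1 lower.

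Genes of lipid metabolism changed in both directions. Of 27 genes of fatty acid synthesis, elongation, desaturation and activation, 7 were higher and 1 lower (5 to 9 higher in the fits without 1 library, and 2 lower without IDH1mt replicate 1). The acyl-CoA synthetases ACSL3 and ACSL1, which activate fatty acids, rose 1.29-fold and 1.23-fold, and the desaturases SCD5 and FADS3 1.28-fold and 1.25-fold. ELOVL3, an elongase, fell 1.59-fold from a low level of 10.5, 12.02 and 11.98 CPM. FASN, the fatty acid synthase, had a log2 difference of 0.10 (adjusted p = 0.361). Of 28 genes of lipid droplets and glycerolipids, 5 were higher and 1 lower, 21.4% called against 14.1% among all genes. LPIN1, a phosphatidate phosphatase, rose 1.39-fold and MGLL, the monoglyceride lipase, fell 1.305-fold. The higher members numbered 3 without IDH1mt replicate 2 or 3, and the lower 2 without PCDH replicate 3. Of 30 fatty acid oxidation genes, 1 was higher and 3 lower, 13.3% against 14.1% among all genes. None of these 4 kept its call in all 6 fits without 1 library.

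Of 32 cholesterol genes, 7 were higher, in each of the fits without 1 library too, and 2 lower, of which 1 was left without PCDH replicate 2, IDH1mt replicate 1 or IDH1mt replicate 3. SQLE, the squalene epoxidase, stood at 97.8, 104 and 112 CPM in PCDH replicates 1 to 3 and at 158, 164 and 157 CPM in IDH1mt replicates 1 to 3 (log2 change 0.61, SE 0.06, adjusted p = 1.26e-08). MSMO1, a sterol methyl oxidase, rose 1.20-fold, the regulator SREBF2 1.19-fold and the exporter ABCA1 1.26-fold. The paralogues that hold the sterol sensor in the endoplasmic reticulum moved apart. INSIG1 stood at 493, 508 and 540.4 CPM in PCDH and 331, 343 and 341 CPM in IDH1mt and fell 1.52-fold (log2 change -0.60, SE 0.06, adjusted p = 2.22e-09), while INSIG2 stood at 37.9, 32.6 and 35.1 CPM in PCDH and 53.9, 53.8 and 52.1 CPM in IDH1mt and rose (log2 change 0.60, SE 0.08, adjusted p = 3.05e-06). Of 30 palmitoyltransferases and depalmitoylating enzymes, the families that attach and remove the fatty acid on proteins, 2 were higher and 1 lower. That is 10% of them, against 14.1% among all genes. The thioesterase PPT1 fell 1.18-fold, and 2 were lower without PCDH replicate 3. Neither higher one was called without IDH1mt replicate 1, and 1 was left without PCDH replicate 1 or 2 or IDH1mt replicate 2 or 3.

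Amino acid genes moved in both directions. GPT2, the mitochondrial alanine transaminase, rose 1.27-fold, and of 29 genes of glutamate, glutamine and branched-chain metabolism 2 passed the test, both higher. That is 6.9% of the list, against 14.1% among all genes. Without PCDH replicate 3, 2 passed as lower, and without PCDH replicate 1 or IDH1mt replicate 2, 1. The branched-chain transaminase BCAT1 had a log2 difference of -0.18 (adjusted p = 0.133). Of 24 genes of serine, glycine and one-carbon metabolism, 1 was higher and 5 lower (4 to 6 lower in the fits without 1 library, and 2 higher without PCDH replicate 3 or IDH1mt replicate 1). MAT2A, which makes S-adenosylmethionine, fell 1.22-fold, and MTHFD2L, a mitochondrial folate enzyme, rose 1.42-fold. Of 31 nutrient transporters, 10 were higher and 2 lower. SLC6A6, the taurine transporter, rose 1.47-fold, SLC43A2, for large neutral amino acids, 2.04-fold, and SLC5A3, for inositol, 1.42-fold. SLC3A2, the heavy chain of several amino acid exchangers, and SLC1A4, a neutral amino acid transporter, fell 1.31-fold and 1.38-fold.

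Among the dioxygenases that use 2-oxoglutarate, 13 of 56 were higher and 6 lower, with a median of 0.01. The histone demethylase KDM3A (chromosome 2, 86440647 to 86492716) stood at 53.8, 59.7 and 58.3 CPM in PCDH replicates 1 to 3 and at 94.6, 95.4 and 100.2 CPM in IDH1mt replicates 1 to 3 (log2 change 0.76, SE 0.07, adjusted p = 7.27e-10). KDM3B and KDM4B, of the same Jumonji family, rose 1.33-fold and 1.297-fold. TET3, which oxidises methylcytosine, rose 1.36-fold (log2 change 0.44, SE 0.10, adjusted p = 0.00214), while TET2 had a log2 difference of 0.32 that did not pass (adjusted p = 0.0615). The collagen hydroxylases P4HA1 and PLOD2 rose 1.20-fold and 1.26-fold, and P3H3 and P4HTM fell 1.26-fold and 1.26-fold. The hypoxia genes above include EGLN1, EGLN3, KDM3A, KDM4B and P4HA1, so the lists overlap. Without PCDH replicate 1, IDH1mt replicate 1 or IDH1mt replicate 2 the lower dioxygenases were 3. Of 31 genes of DNA methylation and Polycomb, 1 was higher and 5 lower. That is 19.4% called, against 14.1% among all genes and 16.4% among protein-coding genes. PHC2, a Polycomb subunit, rose 1.22-fold and CBX6, another, fell 1.20-fold, while DNMT1, the maintenance methyltransferase, had a log2 difference of -0.11 (adjusted p = 0.251). Leaving out 1 library other than PCDH replicate 3 left 2 lower (PCDH replicate 1, IDH1mt replicate 1) or 3 (the others), and leaving out PCDH replicate 3 gave 3 higher.

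Oxidative stress genes moved in both directions. Of 39 NRF2 targets and glutathione genes, 9 were higher and 5 lower. HMOX1, heme oxygenase 1 (chromosome 22, 35380361 to 35394214), stood at 63.5, 67.03 and 69.8 CPM in PCDH replicates 1 to 3 and at 128, 126 and 133 CPM in IDH1mt replicates 1 to 3 (log2 change 0.95, SE 0.07, adjusted p = 3.05e-12). GCLM, of glutathione synthesis, and ABCC1, a glutathione conjugate pump, rose 1.29-fold and 1.23-fold. The aldo-keto reductases AKR1C2 and AKR1C3 fell 1.35-fold and 1.41-fold, while AKR1C1 rose 1.21-fold. These neighbours on chromosome 10 are near-identical copies, so their counts are uncertain. NQO1, the quinone reductase, had a log2 difference of 0.10 (adjusted p = 0.330). With library size as the only scaling 10 passed as lower, and without IDH1mt replicate 2, 3 did.

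Of 33 endoplasmic reticulum chaperones and unfolded protein response genes, 7 were higher and 0 lower (1 at an unadjusted p under 0.05), and 12 were higher and 1 lower without PCDH replicate 3. In the main fit 21.2% were called, against 14.1% among all genes. EDEM1, of the degradation of misfolded proteins, rose 1.29-fold, ERP29 1.28-fold and P4HB, protein disulfide isomerase, 1.21-fold. HSPA5, the central chaperone BiP, had a log2 difference of 0.08 (adjusted p = 0.315). The heat shock list had 0 higher (0 at an unadjusted p under 0.05) and 5 lower of 27 (3 lower without PCDH replicate 1, 1 higher without PCDH replicate 3). Its called share was 18.5%, against 14.1% among all genes and 16.4% among protein-coding genes. HSPB1, a small heat shock protein, stood at 304, 288 and 281 CPM in PCDH and 203, 209 and 213 CPM in IDH1mt, a 1.40-fold fall, and FKBP4, an HSP90 cochaperone, fell 1.29-fold. Of 37 ATF4 and amino acid response genes, 4 were higher and 7 lower. ASNS, the asparagine synthetase that marks this response, had a log2 difference of -0.19 (adjusted p = 0.513). Leaving out IDH1mt replicate 2 brought these to 2 and 2, and leaving out PCDH replicate 2 to 2 and 4. The lower count was 3 without PCDH replicate 1 and 4 without IDH1mt replicate 3.

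Among 36 FOXO targets, autophagy genes and mTOR inhibitors, 9 were higher and 4 lower. DEPP1 and DDIT4L led the rises. DDIT4, the stress-induced mTOR inhibitor REDD1, rose 1.45-fold and the autophagosome protein MAP1LC3B 1.24-fold, whereas CITED2, a competitor of hypoxia-inducible factor for its coactivator, fell 1.33-fold. The higher members numbered 5 without IDH1mt replicate 3, and the lower ones 2 without PCDH replicate 2, IDH1mt replicate 1 or IDH1mt replicate 3. Of 32 p53 targets, 0 were higher (2 at an unadjusted p under 0.05, 1 called without PCDH replicate 3) and 6 lower. The called share was 18.75%, against 14.1% among all genes and 16.4% among protein-coding genes. CDKN1A, the cell-cycle inhibitor p21 (chromosome 6, 36676460 to 36687339), stood at 378, 394 and 368 CPM in PCDH replicates 1 to 3 and at 264, 264 and 268 CPM in IDH1mt replicates 1 to 3. Its groups did not overlap (log2 change -0.52, SE 0.05, adjusted p = 1.07e-08). PLK2 and RRM2B, a kinase and a ribonucleotide reductase subunit, fell 1.56-fold and 1.48-fold. MDM2, the p53 ligase, had a log2 difference of 0.11 (adjusted p = 0.362).

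Genes of DNA replication were lower where they changed. Of 60 genes of DNA replication and S phase, 0 were higher (0 at an unadjusted p under 0.05) and 17 lower (6.9% among all genes), with a median of -0.16. The count was 11 without IDH1mt replicate 2 and at most 18 in the other fits without 1 library. MCM5 and MCM2, subunits of the replicative helicase, stood at 107, 109 and 111 CPM in PCDH and 80.6, 80.1 and 85.5 CPM in IDH1mt and at 73.6, 71.2 and 67.1 CPM in PCDH and 55.4, 52.2 and 56.3 CPM in IDH1mt. Every IDH1mt library was below every PCDH library for both, with falls of 1.32-fold (-0.41, SE 0.06, edgeR adjusted p = 1.74e-05) and 1.29-fold (log2 change -0.37, SE 0.07, adjusted p = 3.05e-04). CDT1, the licensing factor, fell 1.40-fold, RFC4, of the clamp loader, 1.35-fold, PCNA, the clamp, 1.24-fold, RRM1, of ribonucleotide reductase, 1.21-fold and the transcription factor E2F1 1.26-fold. Of 59 genes of mitosis and spindle, 1 was higher and 7 lower, 13.6% against 14.1% among all genes. CDC25B, a phosphatase that starts mitosis, fell 1.40-fold and FOXM1, a transcription factor of mitotic genes, 1.24-fold, while MKI67, the proliferation antigen, had a log2 difference of -0.11 (adjusted p = 0.317). Leaving out IDH1mt replicate 2 left 3 lower mitotic genes, and IDH1mt replicate 1 or 3, 4. The higher ones were 4 without PCDH replicate 3 and 0 without PCDH replicate 1.

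Cyclin D1 also fell. CCND1, cyclin D1 (chromosome 11, 69641087 to 69654474), stood at 603, 572 and 608 CPM in PCDH replicates 1 to 3 and at 387, 387 and 428 CPM in IDH1mt replicates 1 to 3 (log2 change -0.57, SE 0.05, adjusted p = 2.30e-09). Of the inhibitors of cyclin-dependent kinases, CDKN1B, p27, rose 1.20-fold and CDKN1A fell. CCNG2, an atypical cyclin of arrested cells, rose 1.33-fold. In the list of 20 such genes 4 were higher and 3 lower, and 5 were lower without PCDH replicate 3. Of 71 DNA repair genes, 2 were higher and 6 lower, 11.3% against 14.1% among all genes. FANCG of the Fanconi core complex was among the lower ones (log2 change -0.33, SE 0.08, edgeR adjusted p = 0.00501). Without IDH1mt replicate 1, 3 repair genes were lower. The higher ones were ERCC5 and ERCC6 of excision repair, and neither kept its call in every fit without 1 library.

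Growth factor ligands moved in both directions. Of 36, 9 were higher and 6 lower. TGFA, a ligand of the EGF receptor (chromosome 2, 70447280 to 70554193), stood at 112, 116 and 139 CPM in PCDH replicates 1 to 3 and at 276, 266 and 292 CPM in IDH1mt replicates 1 to 3 (log2 change 1.18, SE 0.07, adjusted p = 5.81e-14), and FGF2, basic fibroblast growth factor, rose 1.82-fold (log2 change 0.87, SE 0.06, adjusted p = 1.59e-12). GAS6, the ligand of AXL, and CSF1, a macrophage growth factor, rose 1.28-fold and 1.25-fold. On the other side, with HGF and FGF7, the neurotrophin BDNF fell 1.59-fold and pleiotrophin, PTN, 1.45-fold. Of 37 receptor tyrosine kinases and regulators, 12 were higher and 7 lower. EGFR, the EGF receptor, rose 1.32-fold from 159 ± 6.51 to 209.6 ± 8.42 CPM, and ERRFI1, its feedback inhibitor (chromosome 1, 8004404 to 8026308), from 246, 246 and 267 CPM to 691, 653 and 641 CPM (log2 change 1.39, SE 0.06, adjusted p = 2.38e-18). PDGFRA, CSF1R and EPHA2 rose 2.34-, 1.85- and 1.53-fold, PDGFRA from 5.01, 7.97 and 7.28 CPM. KDR, the receptor of VEGFA, and EPHA7 fell 1.73-fold and 1.74-fold. MET, the receptor of HGF, had a log2 difference of -0.06 (adjusted p = 0.582). The lower receptors numbered 4 without IDH1mt replicate 1 or 3.

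Of 47 genes of ERK feedback and the immediate early response, 13 were higher and 12 lower. DUSP6, an ERK phosphatase (chromosome 12, 89347232 to 89353271), stood at 90.5, 88.2 and 97.1 CPM in PCDH replicates 1 to 3 and at 176, 166 and 178 CPM in IDH1mt replicates 1 to 3 (log2 change 0.91, SE 0.06, adjusted p = 7.01e-13). DUSP5 and SPRY4, further brakes on the pathway, rose 1.46-fold and 1.39-fold, whereas DUSP7 and SPRY2, of the same families, fell 1.35-fold and 1.21-fold. The transcription factor EGR2 rose 2.25-fold, and NR4A3, ARC and SRF fell 1.68-fold, 1.57-fold and 1.32-fold.

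Cytokine and chemokine genes that changed were mostly higher. Of 49 cytokine and chemokine genes, 18 were higher and 4 lower, with 17 to 18 higher in the fits without 1 library. IL6, interleukin-6 (chromosome 7, 22725884 to 22732002), stood at 296, 266 and 273 CPM in PCDH replicates 1 to 3 and at 438, 439.5 and 437 CPM in IDH1mt replicates 1 to 3 (log2 change 0.65, SE 0.05, adjusted p = 1.04e-10). IL11, of the same family, rose 2.06-fold (log2 change 1.05, SE 0.06, adjusted p = 5.54e-15), and their shared receptor subunit IL6ST 1.40-fold. The chemokines CCL20, CCL5 and CXCL14 rose 2.27-, 2.15- and 1.59-fold, CCL5 from 1.62, 2.403 and 1.86 CPM. IL7R, the interleukin-7 receptor, rose 1.62-fold. It is also a T cell marker, and of the 10 T cell markers it alone was called. CXCL1 went the other way from its neighbour CXCL3. CXCL1 stood at 115, 100.2 and 112 CPM in PCDH and 58.5, 58.7 and 60.2 CPM in IDH1mt, and fell 1.85-fold, while CXCL3 stood at 134, 133 and 141 CPM in PCDH and 192, 184 and 186 CPM in IDH1mt, and rose 1.37-fold. Without PCDH replicate 1 or IDH1mt replicate 1, 2 members were lower.

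Of 39 NF-kB targets and feedback genes, 6 were higher and 7 lower. VCAM1, an adhesion molecule for leukocytes, stood at 2.21, 2.66 and 3.28 CPM in PCDH and 0.842, 0.906 and 1.29 CPM in IDH1mt (log2 change -1.44, SE 0.31, adjusted p = 0.00118). BIRC3, an inhibitor of apoptosis, fell 1.61-fold and SOD2, the mitochondrial superoxide dismutase, 1.26-fold from 1081 ± 29.8 to 858 ± 8.05 CPM. IL1A, interleukin-1 alpha, and PTGS2, cyclooxygenase 2, rose 1.57-fold and 1.32-fold. NFKBIA, the feedback inhibitor, had a log2 difference of -0.09 (adjusted p = 0.372). Leaving out PCDH replicate 1 or IDH1mt replicate 2 left 4 lower. In prostaglandin metabolism PTGS2 and the prostacyclin receptor PTGIR rose, the latter 1.95-fold, and the prostaglandin E synthase PTGES fell 1.46-fold.

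In antigen presentation, genes of MHC class II mostly rose. Of 16 MHC class II genes, 10 were higher and 1 lower (10 to 11 higher in the fits without 1 library), with a median of 0.38. The lower gene, RFXANK, part of a promoter-binding complex of this class, was called only without PCDH replicate 3 among those fits, and DESeq2 and limma-voom did not call it. HLA-DRA, the alpha chain of the DR molecule (chromosome 6, 32439842 to 32445046), stood at 76.6, 84.1 and 90.4 CPM in PCDH replicates 1 to 3 and at 145, 141 and 141 CPM in IDH1mt replicates 1 to 3 (log2 change 0.76, SE 0.06, adjusted p = 2.47e-10). CD74, the invariant chain that fills the groove during transport, stood at 327, 314 and 322 CPM in PCDH and 479.9, 505 and 493 CPM in IDH1mt (log2 change 0.62, SE 0.05, adjusted p = 2.88e-10). CIITA, the coactivator that switches on the class, rose 1.52-fold (log2 change 0.60, SE 0.07, adjusted p = 3.49e-07), and HLA-DQA1 and HLA-DMA rose 1.66-fold and 1.34-fold. For the 3 genes CIITA, CD74 and HLA-DRA every IDH1mt library exceeded every PCDH library.

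Of 19 genes of MHC class I and peptide loading, 8 were lower and 2 higher, with a median of -0.10. HLA-B, a classical heavy chain, stood at 452, 486 and 443 CPM in PCDH and 312, 333 and 329 CPM in IDH1mt and fell 1.42-fold (log2 change -0.50, SE 0.05, adjusted p = 4.62e-08). B2M, the light chain, stood at 1385, 1302 and 1455 CPM in PCDH and 1167, 1147 and 1104 CPM in IDH1mt (log2 change -0.28, SE 0.05, adjusted p = 2.55e-04). TAP1, of the peptide transporter, and PSMB8, of the immunoproteasome, fell 1.32-fold and 1.35-fold, while HLA-E had a log2 difference of -0.11 (adjusted p = 0.205). Reads of HLA genes can be shared between near-identical copies. None of the 2 higher genes kept its call in every fit without 1 library, and without PCDH replicate 3 there were 4. Of 51 interferon-stimulated genes, 11 were lower and 2 higher. IFITM3, an antiviral membrane protein, fell 1.47-fold from 17.9 ± 1.06 to 12.2 ± 2.42 CPM, and STAT2, which carries the interferon signal, 1.29-fold. ISG15 had a log2 difference of -0.02 (adjusted p = 0.953). The lower genes numbered 5 without IDH1mt replicate 3 and 7 without PCDH replicate 1, IDH1mt replicate 1 or IDH1mt replicate 2, and in each fit without 1 library except that without PCDH replicate 3 none passed as higher.

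**Figure D4:**
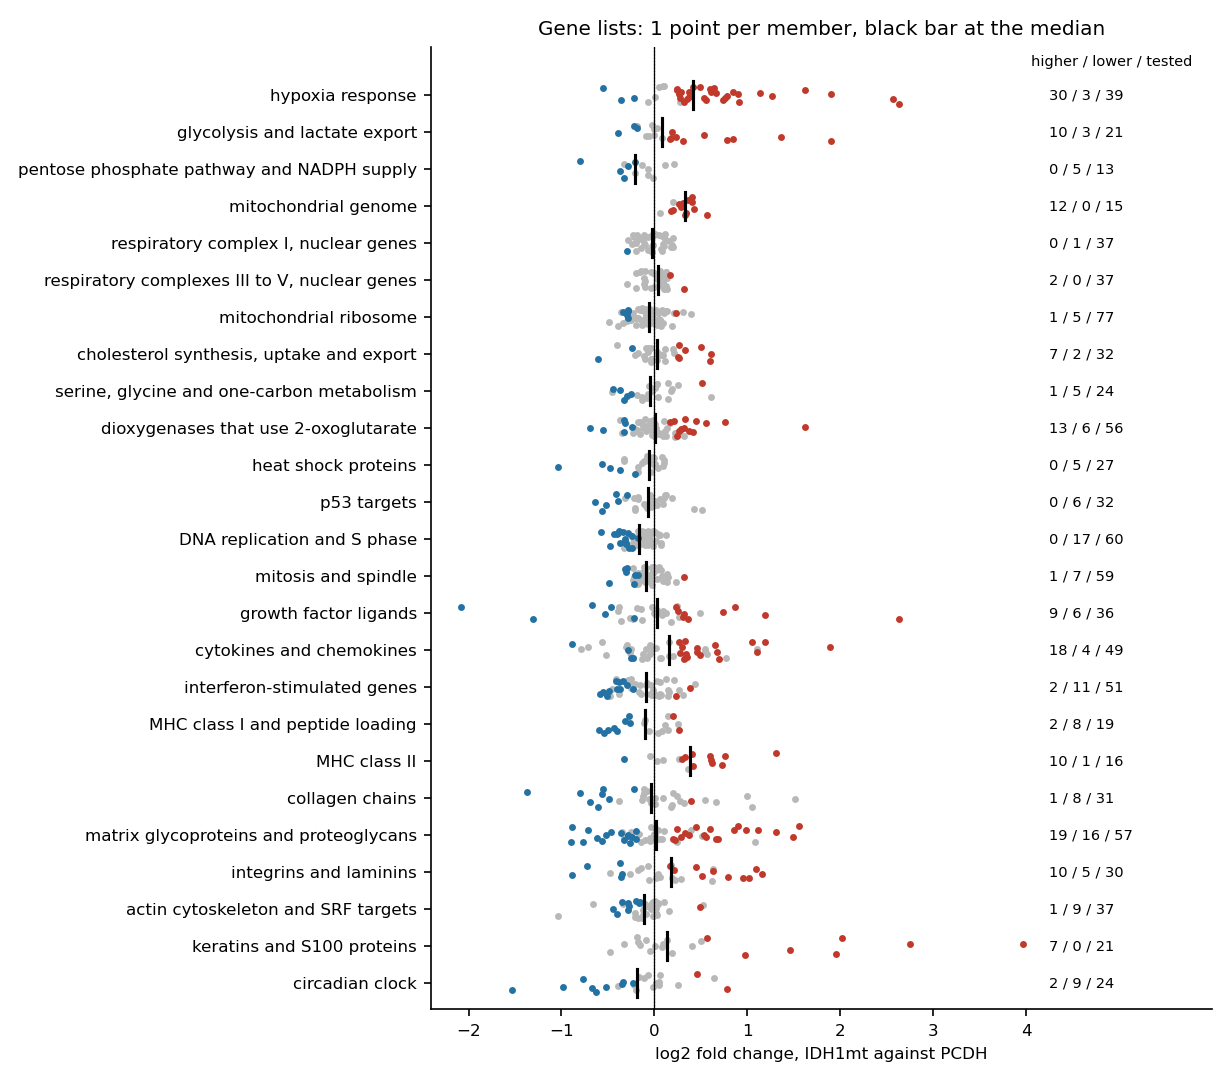
Log2 fold change of IDH1mt against PCDH (horizontal axis) for each tested member of 25 gene lists, 1 point per gene, red if called higher, blue if called lower and grey otherwise, with a black bar at the list's median and a dotted line at the median of all genes. The numbers at the right give the members higher, lower and tested. Hypoxia response, mitochondrial genome and MHC class II have medians of 0.41, 0.33 and 0.38, and DNA replication and circadian clock of -0.16 and -0.18.

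Several collagen chains fell, basement membrane genes moved in both directions, and some elastic fibre genes rose. Of 31 collagen genes, 8 were lower and 1 higher (7 to 8 lower in the fits without 1 library, and 2 higher without PCDH replicate 2). Beside COL1A2 and the type VI chains, COL1A1 fell 1.46-fold from 1306 ± 52.5 to 892 ± 28.8 CPM (log2 change -0.55, SE 0.05, adjusted p = 3.16e-09), COL8A1 1.52-fold and COL5A3 1.62-fold. COL15A1 rose 1.31-fold (log2 change 0.39, SE 0.07, adjusted p = 6.50e-05). COL4A1 and COL4A2, the common basement membrane chains, had log2 differences of 0.99 and -0.14 that did not pass (adjusted p = 0.212 and 0.476). Enzymes that finish collagen split. Of 29, 7 were higher and 6 lower. The cross-linking oxidases LOXL1 and LOX fell 1.82-fold and 1.29-fold and the collagen chaperone SERPINH1 fell 1.39-fold from 325 ± 21.1 to 233 ± 4.12 CPM, whereas the hydroxylases P4HA1 and PLOD2 rose, as did TGM2, a transglutaminase, 1.299-fold. The higher enzymes numbered 4 without IDH1mt replicate 1. Among 10 markers of fibroblasts, pericytes and mesenchymal cells, 5 of 9 tested were lower, and their summed level was 3709 to 3948 CPM in PCDH and 2317 to 2435 CPM in IDH1mt. COL1A1, COL1A2 and DCN are in these lists too, PDGFRB had a log2 difference of -0.12 (adjusted p = 0.208), and the part of the markers in the result was not tested. In bulk RNA fewer cells of a type and less RNA per cell cannot be told apart.

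Of 57 matrix glycoproteins and proteoglycans, 19 were higher and 16 lower. IGFBP5 and IGFBP2, which bind insulin-like growth factors, rose 2.81-fold (log2 change 1.49, SE 0.13, adjusted p = 7.27e-10) and 2.47-fold (log2 change 1.30, SE 0.22, adjusted p = 9.19e-05). EFEMP1, of elastic fibres (chromosome 2, 55865967 to 55924139), stood at 13.3, 11.6 and 15.9 CPM in PCDH replicates 1 to 3 and at 30.1, 29.02 and 29.5 CPM in IDH1mt replicates 1 to 3 (log2 change 1.12, SE 0.11, adjusted p = 3.10e-09). FBN1, fibrillin 1, rose 1.60-fold, FBLN2, fibulin 2, 1.80-fold and MATN2, matrilin 2, 1.59-fold. SPP1, osteopontin, fell 1.64-fold from 131 ± 7.07 to 79.9 ± 1.06 CPM, DCN, decorin, 1.53-fold and SPARC 1.18-fold from 1774 ± 26.5 to 1501 ± 31.8 CPM. The hyaluronan synthases moved apart, HAS2 falling 1.86-fold (log2 change -0.89, SE 0.10, adjusted p = 2.80e-08) and HAS1 rising 1.52-fold (log2 change 0.60, SE 0.07, adjusted p = 3.21e-07).

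Of 62 matrix proteases and inhibitors, 8 were higher and 14 lower, and 9 were lower without IDH1mt replicate 1. FAP, a fibroblast activation protease (chromosome 2, 162170684 to 162245151), stood at 26.99, 31.7 and 33.7 CPM in PCDH replicates 1 to 3 and at 16.2, 18.1 and 13.3 CPM in IDH1mt replicates 1 to 3 (log2 change -0.95, SE 0.11, adjusted p = 9.13e-08). ADAMTS1 and ADAMTS5, which cut proteoglycans, fell 1.85-fold and 1.70-fold, and MMP2 1.20-fold from 3541 ± 65.8 to 2951 ± 56.9 CPM. The inhibitors TIMP2 and RECK rose 1.38-fold and 1.36-fold. SLPI, the neighbour of PI3 on chromosome 20 and like it an elastase inhibitor, stood at 0.344, 0.211 and 0.222 CPM in PCDH and 1.05, 1.98 and 1.55 CPM in IDH1mt, and rose 5.85-fold (log2 change 2.55, SE 0.49, adjusted p = 4.31e-04). On the clotting side F3, tissue factor (chromosome 1, 94529225 to 94541800), stood at 443, 483 and 491 CPM in PCDH replicates 1 to 3 and at 1115, 1094 and 1053 CPM in IDH1mt replicates 1 to 3 (log2 change 1.20, SE 0.05, adjusted p = 2.03e-17), and the complement protease C1S rose 1.42-fold. In all, 11 of 33 complement and coagulation genes were higher and 4 lower (2 lower without PCDH replicate 3 or IDH1mt replicate 3).

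Adhesion receptors changed in both directions, more of them upward. Of 30 integrins and laminins, 10 were higher and 5 lower. ITGA2 and ITGA11, collagen-binding chains, and ITGA6, a laminin-binding chain, rose 2.02-, 2.13- and 1.94-fold, ITGA2 from 208, 214 and 249 CPM to 431, 467 and 461 CPM. Laminin chains diverged, since LAMB3 and LAMA5 rose 1.73-fold and 1.55-fold and LAMA4, LAMA3 and LAMB2 fell 1.85-, 1.65- and 1.297-fold. The higher members numbered 6 without IDH1mt replicate 2. Of 46 adhesion molecules, 12 were higher and 5 lower, PODXL, podocalyxin, rising 1.98-fold, L1CAM 1.73-fold and the cadherins CDH4 and CDH11 1.63-fold and 1.52-fold, while NCAM1 and CDH13 fell 1.301-fold and 1.39-fold. Of 51 semaphorins, ephrins, netrins and slits, 13 were higher and 3 lower. Without IDH1mt replicate 2, 6 were higher, and without PCDH replicate 3, 6 were lower. SEMA6D rose 1.83-fold and SEMA4B 1.55-fold, and RGMB, a BMP coreceptor, fell 1.51-fold.

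Several targets of mechanical signalling fell. Of 33 YAP and TAZ factors and targets, 7 were lower and 2 higher (5 to 7 lower in the fits without 1 library, and 4 higher without PCDH replicate 3). CTGF and CYR61, the matricellular proteins used as readouts of this pathway, fell 1.85-fold from 37.4 ± 3.13 to 20.3 ± 2.07 CPM (log2 change -0.89, SE 0.10, adjusted p = 3.69e-08) and 1.70-fold from 71.9 ± 5.59 to 42.3 ± 2.03 CPM (log2 change -0.76, SE 0.08, adjusted p = 7.56e-09). AMOTL2 and VGLL3, a scaffold and a cofactor, fell 1.33-fold and 1.43-fold. The transcriptional coactivator WWTR1 rose 1.27-fold, and YAP1 had a log2 difference of 0.13 (adjusted p = 0.210). The largest change in the list was the rise of F3, given above with the clotting genes (log2 change 1.20). Of 37 genes of the actin cytoskeleton and of SRF, 9 were lower and 1 higher. The tropomyosins TPM1 and TPM4 fell 1.22-fold and 1.22-fold and LMNA, lamin A, 1.21-fold. With library size alone 15 were lower, and 2 were higher without PCDH replicate 3.

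Of 51 genes of TGF-beta and BMP signalling, 11 were higher and 6 lower, and 17 were higher without PCDH replicate 3. The receptors TGFBR1, TGFBR2 and TGFBR3 rose 1.59-, 1.39- and 1.45-fold, and SMAD3, which carries their signal, 1.40-fold. INHBA, the activin A subunit (chromosome 7, 41667168 to 41705834), stood at 26.5, 29.8 and 33.7 CPM in PCDH replicates 1 to 3 and at 50.2, 46.4 and 54.5 CPM in IDH1mt replicates 1 to 3 (log2 change 0.75, SE 0.09, adjusted p = 3.70e-07). The ligand TGFB1 had a log2 difference of 0.16 (adjusted p = 0.0694). The lower members, which include ID3, ID4 and TGFBI, numbered 3 without IDH1mt replicate 1. Among 37 Wnt genes 3 rose and 3 fell, 16.2% against 14.1% among all genes and 16.4% among protein-coding genes. The receptors FZD7 and FZD8 rose 1.47-fold and 1.77-fold, and the nuclear factor TCF7 fell 1.31-fold. Among 27 Notch genes, 7 were higher and 1 lower, NOTCH2 1.21-fold, and the higher members numbered 3 without IDH1mt replicate 2 or 3 and 4 without PCDH replicate 1 or 2. None was lower in those 4 fits.

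Keratins and S100 proteins rose where they changed, with 7 of 21 higher and 0 lower (0 at an unadjusted p under 0.05, 1 called without PCDH replicate 3). KRT7, a simple-epithelial keratin, stood at 0.737, 0.632 and 0.532 CPM in PCDH and 2.78, 2.55 and 2.41 CPM in IDH1mt, and S100A8, the partner of S100A9, at 1.33, 0.506 and 0.710 CPM in PCDH and 3.07, 3.33 and 3.38 CPM in IDH1mt. Both rose from low levels (adjusted p = 1.63e-04 and 7.80e-05). KRT15 and S100A3 rose 2.74-fold and 1.96-fold. The epithelial markers EPCAM and KRT8 had log2 differences of 1.17 and -0.18 that did not pass (adjusted p = 0.191 and 0.690), and 0 of the 4 such markers tested were called (1 at an unadjusted p under 0.05). Among 24 glioma stem cell and progenitor factors 9 were higher and 3 lower. SOX9, a progenitor transcription factor, rose 1.49-fold from 17.5 ± 1.74 to 26.2 ± 1.81 CPM, the adhesion receptor CD44 1.25-fold and the secreted CHI3L1 1.33-fold.

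Several output genes of the circadian clock fell. Of 24 clock genes, 9 were lower and 2 higher (7 to 9 lower in the fits without 1 library), with a median of -0.18. DBP, an output transcription factor (chromosome 19, 48630030 to 48637438), stood at 16.6, 15.4 and 13.2 CPM in PCDH replicates 1 to 3 and at 6.61, 8.11 and 8.09 CPM in IDH1mt replicates 1 to 3 (log2 change -0.99, SE 0.13, adjusted p = 1.79e-06). CIART, a repressor of the clock, stood at 11.2, 12.1 and 12.1 CPM in PCDH and 7.28, 6.59 and 6.86 CPM in IDH1mt (log2 change -0.77, SE 0.13, adjusted p = 6.24e-05), and NR1D1, the repressor REV-ERB alpha, at 214, 193 and 201 CPM in PCDH and 127, 134 and 133 CPM in IDH1mt (log2 change -0.63, SE 0.06, adjusted p = 3.16e-09). None of these groups overlapped. PER1 fell 1.43-fold (log2 change -0.52, SE 0.08, adjusted p = 1.17e-05), BHLHE41 1.59-fold and TEF 1.27-fold, whereas its relative BHLHE40 rose 1.72-fold. The activators CLOCK and ARNTL, which drive these genes, had log2 differences of 0.01 and 0.06 that did not pass (adjusted p = 0.938 and 0.743). The hour of harvest was not given in the labels.

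The promoters of the hypoxia and clock genes were searched for short motifs, as factors known to act on each list bind them. The RefSeq windows on GRCh38.p14 run from 250 bases before to 50 after each gene's start. The motifs, sought on both strands, were ACGTG, the core bound by hypoxia-inducible factors, and CACGTG, the E-box bound by CLOCK with ARNTL, which contains that core on each strand. The core was present in 26.4% of the 11119 tested genes with a window, in 25.9% of those called higher and in 26.7% of those called lower. Of the 30 hypoxia genes higher in IDH1mt, 22 had a window and 11 of these held the core. Of all hypoxia genes tested, called or not, 30 had a window and 15 of these held it, which is the same share. The core was also in 7 of the 9 lower clock genes and in 11 of the 19 tested clock genes with a window. The E-box was present in 9.91% of tested genes with a window, in 4 of the 9 lower clock genes, all of which had a window, and in 5 of the 19 tested clock genes with a window. Over all 27305 windows the shares were 21.6% and 7.43%. A match describes the letters and is not a binding site. The windows of HK2 and BNIP3 are shown with the core on either strand in capitals. BNIP3 is in the hypoxia list, whereas HK2 is not and does not enter that list's counts. Those of the clock genes CIART and PER1 are shown with the E-box in capitals.
HK2, chr2:74833877-74834176, forward strand: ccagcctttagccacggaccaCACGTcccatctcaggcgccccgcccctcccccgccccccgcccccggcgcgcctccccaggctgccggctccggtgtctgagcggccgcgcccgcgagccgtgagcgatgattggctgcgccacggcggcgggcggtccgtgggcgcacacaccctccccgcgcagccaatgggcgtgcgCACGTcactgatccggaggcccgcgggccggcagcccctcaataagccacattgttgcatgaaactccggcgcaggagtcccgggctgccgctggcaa
BNIP3, chr10:131981874-131982173, reverse strand: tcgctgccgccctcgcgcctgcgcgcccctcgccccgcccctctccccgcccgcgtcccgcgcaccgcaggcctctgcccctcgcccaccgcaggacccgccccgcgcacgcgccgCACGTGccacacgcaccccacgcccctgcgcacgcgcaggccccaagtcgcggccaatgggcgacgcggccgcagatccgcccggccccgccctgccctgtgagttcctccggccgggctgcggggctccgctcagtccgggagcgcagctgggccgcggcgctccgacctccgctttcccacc
CIART, chr1:150282304-150282603, forward strand: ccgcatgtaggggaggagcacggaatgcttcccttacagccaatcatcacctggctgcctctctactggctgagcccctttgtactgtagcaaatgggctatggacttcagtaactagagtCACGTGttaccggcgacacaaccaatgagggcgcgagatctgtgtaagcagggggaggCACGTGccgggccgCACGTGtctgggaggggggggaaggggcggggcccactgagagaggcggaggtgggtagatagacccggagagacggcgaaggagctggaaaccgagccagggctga
PER1, chr17:8152355-8152654, reverse strand: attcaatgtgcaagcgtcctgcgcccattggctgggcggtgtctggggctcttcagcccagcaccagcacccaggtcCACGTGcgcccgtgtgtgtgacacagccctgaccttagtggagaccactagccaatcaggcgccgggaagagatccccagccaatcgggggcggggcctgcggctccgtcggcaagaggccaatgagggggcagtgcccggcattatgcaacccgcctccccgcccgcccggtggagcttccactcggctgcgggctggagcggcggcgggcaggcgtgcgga
The HK2 window held 2 matches, and that of BNIP3 1 palindrome read on both strands. CIART held 3 copies of the E-box and PER1 1.

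Ion channels, receptors and noncoding RNAs added single strong changes. Of 55 ion channels and pumps, 10 were higher and 3 lower, and 6 were higher without IDH1mt replicate 2. SCN3A, a neuronal sodium channel, rose 2.51-fold to 2.15, 3.05 and 2.25 CPM, and ASIC1, an acid-sensing channel, 1.66-fold. Of 55 genes of G protein-coupled receptor signalling, 8 were higher and 5 lower. The bradykinin receptors BDKRB2 and BDKRB1, neighbours on chromosome 14, rose 2.35-fold (log2 change 1.23, SE 0.07, adjusted p = 1.01e-14) and 1.97-fold (log2 change 0.98, SE 0.06, adjusted p = 1.78e-13). The adenylate cyclase ADCY8 fell 2.04-fold. The higher receptor genes numbered 5 and the lower 3 without IDH1mt replicate 1. Among 78 cytosolic ribosomal protein genes 4 were higher and 0 lower (1 at an unadjusted p under 0.05), 5.13% against 14.1% among all genes. There was 1 higher without IDH1mt replicate 1 or 3, and 2 were lower without PCDH replicate 3. Of noncoding RNAs, AL034417.4 on chromosome 1 stood at 1.97, 1.14 and 0.621 CPM in PCDH and 5.09, 6.83 and 5.63 CPM in IDH1mt (log2 change 2.25, SE 0.30, adjusted p = 2.07e-06) and FLJ22447 on chromosome 14 rose 3.86-fold. AL118508.1 on chromosome 20 stood at 14.7, 14.7 and 10.5 CPM in PCDH and 2.99, 4.08 and 3.06 CPM in IDH1mt (log2 change -1.97, SE 0.17, adjusted p = 6.11e-10). LINC02015 rose 3.66-fold and NECTIN3-AS1 fell 2.33-fold, and without a stated strand setting reads of NECTIN3-AS1 and of NECTIN3 cannot be told apart.

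Many of the leading genes also differed between IDH1mt and C269S, the cells with the mutant that lacks this cysteine. Of 16874 genes, 827 (4.9%) passed edgeR's test between IDH1mt and C269S, 440 higher in IDH1mt and 387 lower. Both comparisons use the same IDH1mt libraries, and the values against PCDH share the PCDH libraries. DEPP1 stood at 25.1, 25.2 and 32.3 CPM in C269S, close to PCDH, with log2 changes against PCDH of 3.18 in IDH1mt and 0.28 in C269S and a difference of 2.90 (SE 0.08, adjusted p = 5.64e-22). HILPDA stood at 38.8, 40.3 and 45.7 CPM in C269S, and its log2 changes were 2.57 and 0.08, a difference of 2.49 (SE 0.08, adjusted p = 4.11e-18). SLC2A1 changed by 1.90 and 0.28, a difference of 1.62 (SE 0.06, adjusted p = 4.11e-18). For HGF the changes were -2.08 and -0.36, a difference of -1.72 (SE 0.09, adjusted p = 1.28e-14), and for FGF7 they were -1.31 and 0.03, a difference of -1.34 (SE 0.10, adjusted p = 1.28e-11).

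For a further group both mutants stood away from the vector. PI3 stood at 2682, 2739 and 3009.9 CPM in C269S, between the other groups, with changes of 1.60 and 1.03 and a difference of 0.57 (SE 0.05, adjusted p = 8.59e-10). COL11A1 changed by -1.37 and -0.96, and the difference of -0.41 (SE 0.15, adjusted p = 0.127) did not pass. TGFBI changed by -0.20 and -0.22, with a difference of 0.03 (SE 0.05, adjusted p = 0.827). FN1 rose in IDH1mt by 0.22 and stood higher still in C269S, at 0.45, with a difference of -0.23 (SE 0.05, adjusted p = 0.00393). By list, 31 of 39 hypoxia genes, 13 of 21 glycolysis genes and 9 of 15 mitochondrial genes differed between IDH1mt and C269S, against 4.9% of all genes. Of DNA replication genes 6 of 60 differed.

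**Figure D5:**
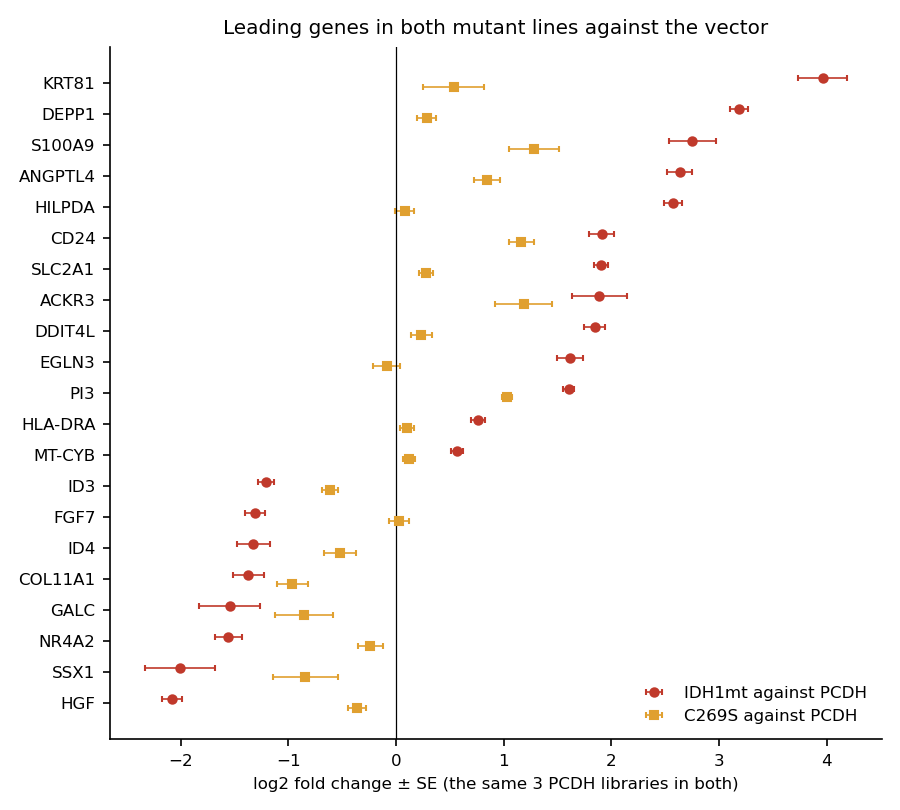
Log2 fold change with its SE (horizontal axis) of 21 genes in IDH1mt (red circles) and in C269S (yellow squares), both against the same 3 PCDH libraries. For HILPDA, EGLN3 and FGF7 the C269S squares lie near zero, at 0.08, -0.09 and 0.03, while for PI3, CD24 and COL11A1 they lie on the same side as the circles.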

How the data were processed

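RNA sequencing libraries of U87 cells were analysed from the deposited whole-number read counts per gene, which were not normalized. HISAT2 2.0.5 and featureCounts 1.5.0-p3, with builds GRCh38 and hg38, are named in the submitters' processing notes. Library kit, read length and strandedness are not given in the sources used here. FPKM values deposited beside them, scaled by the authors to gene length and library total, served only as an alternative. Each table column was tied to its group by its name (Control for PCDH, mt for IDH1mt, CS for C269S). Total counts of 19108925 to 24803711 per library limit the precision for genes of few counts.

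The function filterByExpr of edgeR, given the groups, kept 16874 genes. A single fit took all 9 libraries, 1 mean for each group and TMM scaling and used the robust quasi-likelihood F test of edgeR 4.0.16 under R 4.3.3, with Benjamini-Hochberg adjustment over the whole table, and adjusted p-values under 0.05 made a call. Dividing the log2 fold change by the root of F gave its SE. Exact permutation tests of 3 against 3 libraries reach 0.1 at the lowest, so none is given. On simulated counts with known changes the fit was checked before use.

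The comparison, its gene lists and the rule for named genes were chosen with earlier results of these data known, and the lists are described by counts and medians. The rule took IDH1, the 20 protein-coding genes with the largest rise and the 20 with the largest fall (mean of at least 1 log2 CPM, groups without overlap), the 10 with the largest rise and fall in CPM, up to 4 called members per list and direction by adjusted p, and 5 noncoding RNAs per direction. Some genes that the rule picked are not reported here. Core pathway members that did not pass were named with their values, and other genes, windows and promoters were chosen after their values were seen. Same-numbered libraries of IDH1mt and PCDH shared no deviation from their group means, so the main fit has no block. Principal components were taken over the 6 libraries on log2 CPM with a prior count of 2. Genes with near-identical copies, overlapping genes and antisense pairs are uncertain.

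Alternatives were other scalings, other count filters, the 6 libraries of a comparison alone, each library left out, the replicate number as a block, DESeq2 1.42.0, limma-voom in limma 3.58.1, limma on log2 of FPKM plus 1 or plus 0.1, a threshold of 0.01, and a test against 1.5-fold in edgeR.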

Additional observations from a re-analysis of the deposited data

How the results depend on the processing

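Against PCDH, 1211 genes were higher and 1164 lower, and no gene named by the rule reversed under any alternative. DESeq2 called 1271 and 1141, and limma-voom 1205 and 1141. At an adjusted p under 0.01 the counts were 734 and 576, and in the test against a 1.5-fold change 83 and 36. With library size as the only scaling, lower members went from 6 to 12 in DNA repair and from 1 to 5 in complex I. They went from 5 to 9 in the mitochondrial ribosome, from 7 to 11 in mitosis and from 6 to 9 in p53 targets. Higher members went from 2 to 0 in DNA repair and from 10 to 7 in glycolysis. Limma on log2 FPKM plus 1 gave 742 lower genes and plus 0.1 gave 733. Of the 360 genes named by the rule, 44 lost their call on log2 FPKM plus 1 and 47 on plus 0.1. Among them were ITGA6, LAMA3, NAMPT, NECTIN3-AS1, NR4A3, PDK1 and SCN3A at 1 or both added constants. CA9 and ATP5F1A were lost at both. Leaving out 1 library gave 860 to 1574 higher and 745 to 1474 lower genes, the highest without PCDH replicate 3, and 83 of the 360 genes named by the rule lost their call in at least 1 such fit. The cause was not tested. Fitting the replicate number as a block left 1043 higher and 944 lower, and 21 of the 360 lost their call. Same-numbered libraries had correlations of deviations of -0.03, 0.02 and 0.08, so the numbers do not pair the samples.

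Against C269S, 440 genes were higher in IDH1mt and 387 lower. The higher numbered 258 to 365 with 1 library left out, 261 and 253 on FPKM plus 1 and plus 0.1, 238 at an adjusted p under 0.01 and 27 against 1.5-fold. With the 6 libraries alone the higher numbered 647, and DESeq2 called 517. The lower numbered 189 to 277 with 1 library left out, 182 and 192 on FPKM, 175 at an adjusted p under 0.01 and 5 against 1.5-fold. With the 6 libraries alone the lower numbered 585, and DESeq2 called 450. Library size as the only scaling gave 347 higher and 523 lower. Genes of few counts have wide errors, and calls among them are limited by depth.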
